A study of Mus musculus with 8 samples.

Results

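H3K27ac, acetylation of histone H3 at K27, was compared between mouse neuronal stem cells carrying wild-type H3.3 and cells carrying H3.3K27M. The members were all enriched intervals listed for the 2 H3K27ac libraries in the deposited interval table of H3K4me3 and H3K27ac, chosen by their library name and by no measured value. They were 39018 wild-type and 20040 K27M intervals, together 59058 of the 105246 intervals in that table and of the 131828 intervals in the series. The cells of both groups were labelled p16Ink4a- and p14Arf-, carried a stably transduced copy of either H3.3 form, and grew with EGF and bFGF in Neurobasal A, so the control also bore an added H3.3. Chromatin was fixed in 1% formaldehyde for 15 min, and each precipitation took 30 ug of chromatin and 4 ul of anti-H3K27ac antibody. Each genotype had 1 library, so differences could not be checked against replicates and no p-value is given, and the labels do not say whether either line was a clone. The total number of tags in each library is unknown. The ranges in parentheses are exact 95% intervals of counting error alone, and neighbouring intervals are not independent.

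Acetyl groups on K27 of histone H3 are added mainly by the acetyltransferases Ep300 and Crebbp, and the mark lies at active promoters and at active enhancers. The same lysine can instead be methylated by Polycomb repressive complex 2, so a given histone tail carries either the acetyl or the trimethyl mark there. In H3.3K27M a methionine takes the place of that lysine, a change known from diffuse midline gliomas in people. In neural stem cells H3K27ac is known to cover the genes of stem cell transcription factors and long distal stretches around them.

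The labelled cell type was checked against marker genes. A wild-type H3K27ac interval lay within 1 kb of the span of 10 of 10 neural stem cell markers (among them Sox2, Nes, Vim, Fabp7, Pax6, Hes1, Hes5, Msi1 and Slc1a3), and a K27M interval at 9 of 10, with Hes5 missing. Of the other marker sets, 1 of 5 neuronal, 3 of 4 astrocyte, 1 of 4 oligodendrocyte, 1 of 5 microglial, 1 of 3 endothelial and 1 of 5 fibroblast genes had a wild-type interval. The counts in the K27M list were 0, 1, 1, 0, 1 and 0. Among these other markers the greatest covered length was 2717 bp, at Pecam1 in the wild-type list, while the neural stem cell markers had between 1511 and 21465 bp there.

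Promoters of 8 genes are shown because they mark out the outcomes seen at start sites. Each is the RefSeq window of GRCm38.p6 from 250 bases before to 50 bases after the start, printed 5′ to 3′ on the gene's own strand with every CpG in capitals. In Fabp7 (chr10:57784673-57784972, plus strand), which encodes a fatty acid binding protein of radial glia, Nes (chr3:87970843-87971142, plus strand), which encodes nestin, and Olig2 (chr16:91225300-91225599, plus strand), a basic helix-loop-helix factor of progenitors, the window was touched by an interval of both lists.
Fabp7: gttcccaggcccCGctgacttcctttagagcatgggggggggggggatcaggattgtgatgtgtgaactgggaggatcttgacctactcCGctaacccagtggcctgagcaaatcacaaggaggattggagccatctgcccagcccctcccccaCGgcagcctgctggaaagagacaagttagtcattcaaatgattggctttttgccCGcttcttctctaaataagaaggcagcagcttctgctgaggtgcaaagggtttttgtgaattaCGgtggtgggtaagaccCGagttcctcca
Nes: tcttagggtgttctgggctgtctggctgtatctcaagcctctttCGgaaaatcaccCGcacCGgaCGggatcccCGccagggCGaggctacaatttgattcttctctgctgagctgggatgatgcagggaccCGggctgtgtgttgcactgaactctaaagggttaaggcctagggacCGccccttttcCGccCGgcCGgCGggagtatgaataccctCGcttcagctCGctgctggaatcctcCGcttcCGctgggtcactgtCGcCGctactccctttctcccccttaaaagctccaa
Olig2: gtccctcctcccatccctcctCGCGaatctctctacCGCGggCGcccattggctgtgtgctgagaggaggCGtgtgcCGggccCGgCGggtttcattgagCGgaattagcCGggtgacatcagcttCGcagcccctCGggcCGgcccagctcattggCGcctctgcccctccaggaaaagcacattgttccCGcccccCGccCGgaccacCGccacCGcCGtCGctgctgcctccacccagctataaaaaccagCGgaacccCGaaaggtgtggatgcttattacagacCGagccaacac
In Hes5 (chr4:154960673-154960972, plus strand), a Notch target and repressor of neurogenesis, Sox8 (chr17:25570637-25570936, minus strand), a SoxE factor of glia, and Slc2a1 (chr4:119108495-119108794, plus strand), the main glucose transporter gene of brain endothelium and many dividing cells, the window was touched by wild-type intervals alone.
Hes5: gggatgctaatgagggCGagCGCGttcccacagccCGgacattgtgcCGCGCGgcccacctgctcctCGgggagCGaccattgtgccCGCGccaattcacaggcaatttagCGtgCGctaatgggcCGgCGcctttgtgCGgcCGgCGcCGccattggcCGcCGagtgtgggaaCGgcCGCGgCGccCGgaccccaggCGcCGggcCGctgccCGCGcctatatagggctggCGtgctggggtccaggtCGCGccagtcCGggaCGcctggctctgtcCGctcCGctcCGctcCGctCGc
Sox8: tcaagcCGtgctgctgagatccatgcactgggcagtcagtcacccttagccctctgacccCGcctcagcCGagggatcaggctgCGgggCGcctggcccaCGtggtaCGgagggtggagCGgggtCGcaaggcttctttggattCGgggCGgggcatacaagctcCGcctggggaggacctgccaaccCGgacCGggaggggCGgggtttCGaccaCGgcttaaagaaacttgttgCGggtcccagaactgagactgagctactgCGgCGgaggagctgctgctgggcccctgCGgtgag
Slc2a1: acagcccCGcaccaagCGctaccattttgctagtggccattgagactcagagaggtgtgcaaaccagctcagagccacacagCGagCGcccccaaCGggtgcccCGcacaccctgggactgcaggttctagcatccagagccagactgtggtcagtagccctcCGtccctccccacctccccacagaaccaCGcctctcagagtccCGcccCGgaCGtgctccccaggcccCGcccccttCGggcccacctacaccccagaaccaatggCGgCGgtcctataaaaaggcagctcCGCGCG
In Rhob (chr12:8499960-8500259, minus strand), a small GTPase gene, and Col4a1 (chr8:11312777-11313076, minus strand), a basement membrane collagen gene, the window was touched by K27M intervals alone.
Rhob: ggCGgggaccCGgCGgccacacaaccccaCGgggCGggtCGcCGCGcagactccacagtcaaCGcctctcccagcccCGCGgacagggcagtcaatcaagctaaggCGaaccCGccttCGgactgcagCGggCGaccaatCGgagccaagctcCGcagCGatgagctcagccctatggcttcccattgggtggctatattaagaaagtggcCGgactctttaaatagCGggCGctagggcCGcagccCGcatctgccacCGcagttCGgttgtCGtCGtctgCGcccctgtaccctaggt
Col4a1: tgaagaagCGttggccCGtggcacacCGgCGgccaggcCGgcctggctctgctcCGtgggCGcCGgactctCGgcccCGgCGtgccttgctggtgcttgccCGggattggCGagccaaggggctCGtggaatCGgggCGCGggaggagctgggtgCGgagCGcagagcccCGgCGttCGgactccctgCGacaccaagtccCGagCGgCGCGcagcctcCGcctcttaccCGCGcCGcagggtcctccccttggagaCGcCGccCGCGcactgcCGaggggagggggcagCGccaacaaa

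The 3 printed promoters called in wild type alone differed in how dense the wild-type intervals touching the window were. At the Hes5 start 2 intervals of 1055 bp in all had a mean density of 23.97 tags per bin of about 32 nt, below the 5th percentile of the K27M list, 25.5. At the Slc2a1 start a 311 bp interval had a mean density of 34.2, and at the Sox8 start 2 intervals of 2200 bp in all had 41.96. Sox8 therefore stood above the median mean density of the K27M list, 37.4, and yet had no K27M interval. Across its span Sox8 had 7 wild-type intervals over 5307 bp. The Sox2 start window, which is not printed, was also touched by wild-type intervals alone. There 2 intervals of 7748 bp in all had a mean density of 61.5, while 4 K27M intervals lay elsewhere within the Sox2 span and its flanks. The 3 promoters called in both had wider wild-type intervals of 3576, 6084 and 2454 bp at Fabp7, Nes and Olig2, against 1502 and 3171 bp at Fabp7 and Nes in the K27M list and 1762 bp in 2 intervals at Olig2. Their mean densities were 90.0, 73.5 and 74.7 in the wild-type intervals and 61.8, 57.4 and 54.2 in the K27M intervals touching the window. At Olig2 the 2 K27M intervals differed, with 38.0 over 419 bp and 59.2 over 1343 bp. The new K27M interval had a density of 46.1 over 867 bp at Rhob and 25.3 over 792 bp at Col4a1.

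Promoters that kept H3K27ac were richer in CpG than those called in wild type alone. The reference used here held no windows for chromosome 18. Of 23273 distinct windows of 19497 genes, 6099 were touched by both lists, 2965 by the wild-type list alone, 210 by the K27M list alone and 13999 by neither. The median number of CpG was 24, 20, 27 and 5 in these groups, and the median GC content was 62.7%, 60.3%, 68.5% and 51.3%. A K27M interval was also present at 39.0% (33.3 to 44.8) of wild-type windows with at most 4 CpG, against 77.0% (75.2 to 78.6) of those with 30 or more. Of the 2965 windows with wild-type intervals alone, 1546 lay in a merged region that also held a K27M interval, so a window can lack a K27M interval that lies beside it.

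Motifs were counted by exact letters on both strands of each window. The ETS core (CCGGAAG) was found in 23.1% of windows in both lists, 19.0% of those in wild type alone and 9.52% of those in K27M alone, against 11.3% of all windows. The GC box (GGGCGG) stood at 67.3%, 65.4% and 75.7% against 45.2%, and the NRF1 site (GCGC, 2 bases of any kind, GCGC) at 15.4%, 14.6% and 12.9% against 8.26%. The CCAAT box (CCAAT) was in 35.6%, 44.6% and 30.5% against 38.3%, and the cAMP response element (TGACGTCA) in 4.53%, 2.46% and 1.90% against 2.23%. Windows of wild type alone thus held the CCAAT box more often, and the cAMP response element less often, than windows of both. The groups also differed in CpG and GC content, and no motif share was matched for either. The E-box (CACGTG), whose letters ACGT overlap those of the cAMP response element, was in 10.6%, 10.99% and 12.9% against 7.95%. The SOX core (ACAATG) was in 6.30%, 6.64% and 7.62% against 11.1% of all windows. A match is a string of letters and not a bound site.

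The wild-type list reached far lower densities than the K27M list. Its intervals had a median mean density of 25.9 and a lowest of 13.7, against 37.4 and 20.6 in the K27M list. The median length was similar at 515 and 488 bp, while the 75th percentile was 1011 against 794 bp and the longest interval 14043 against 7307 bp. Wild-type intervals covered 31.7 Mb at a mean density of 38.9, and K27M intervals 12.6 Mb at 45.0. Of the wild-type intervals 46.8% lay at a promoter by the deposited annotation, against 65.8% of the K27M intervals. An interval missing from the K27M list is not shown to lack H3K27ac, since the call thresholds of the 2 lists and the depth are unknown.

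**Figure D1:**
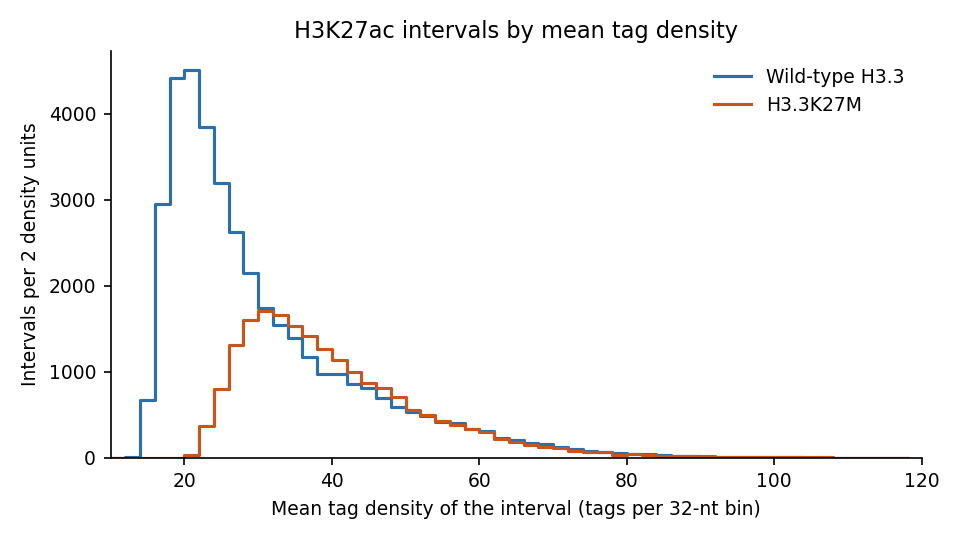
Number of H3K27ac intervals (vertical axis, per 2 density units) by mean tag density (horizontal axis, tags per bin of about 32 nt) in the wild-type H3.3 list (blue) and the H3.3K27M list (orange), drawn up to a density of 120. The wild-type curve peaks near its lowest values, the K27M curve starts higher (lowest 20.6 against 13.7), and both run together at high density.

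Most of the wild-type intervals that had no K27M counterpart were sparse and short. The 23534 wild-type intervals not met by a K27M interval had a median density of 22.1 and a median length of 355 bp, against 38.9 and 995 bp for the 15484 that were met. A part of them nevertheless lay within the density range of the K27M list. There were 6891 (29.3%) at or above its 5th percentile, 25.5, and 830 (3.53%) at or above its median. Within a density range longer intervals were met more often. In the densest tercile of wild-type intervals the share met by a K27M interval was 50.7% (44.8 to 56.5) for those up to 291 bp and 89.4% (88.7 to 90.1) for those over 1011 bp, and in the sparsest tercile it was 6.53% and 21.3%. The share met varied little between autosomes, from 37.4% on chromosome 10 to 42.7% on chromosome 1.

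Whether H3K27ac was found again in the K27M library depended on the kind of region. Overlapping intervals of both lists were merged into 39294 regions, of which 38272 held a wild-type interval, and 61.5% of those held no K27M interval. Promoters with a CpG island were found in both lists in 79.7% (78.9 to 80.4) of 11135 regions. CpG islands away from promoters came close, with 67.9% (64.6 to 71.1) of 807 regions. Promoters without an island were far lower, at 24.2% (23.1 to 25.2) of 6590 regions, near the distal regions with neither note. Distal regions inside genes stood at 17.4% (16.8 to 18.1) of 14102 and those away from genes at 22.5% (21.4 to 23.6) of 5638. The CpG island thus went with a larger step in this share than the promoter note.

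The step between the classes remained at equal wild-type density over most of the range. Between densities of 29.03 and 33.5, 74.1% (71.6 to 76.4) of the island promoter intervals were met by a K27M interval, against 43.3% (39.2 to 47.4) of the other promoter intervals and 27.5% (25.1 to 30.0) of the distal intervals inside genes. In the sparsest decile the shares were 29.5% for island promoters and 3.06% for distal intervals inside genes. In the densest decile, above 50.05, all 5 classes stood between 94.9% and 99.1%. Wild-type H3K27ac of the highest density was therefore nearly always called in the K27M library too, wherever it lay.

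**Figure D2:**
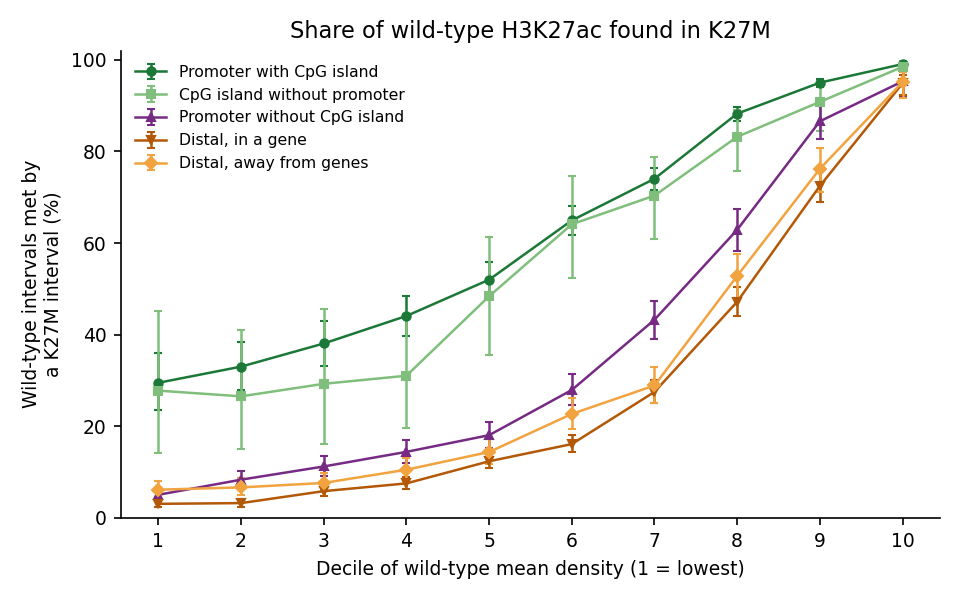
Share of wild-type H3K27ac intervals met by a K27M interval (vertical axis, percent) by decile of wild-type mean density (horizontal axis, 1 is the lowest), for 5 classes of location. Bars are exact 95% intervals of counting error. The 2 classes with a CpG island lie above the 3 without in every decile, and all 5 stand between 94.9% and 99.1% in the densest.

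Distance to a start site gave the same picture in steps. The share of wild-type intervals met by a K27M interval was 71.1% (70.1 to 72.1) within 500 bp of the nearest RefSeq start, 66.8% from 500 to 1000 bp and 35.0% from 1000 to 2000 bp. From 2000 bp outward it stayed between 22.4% and 29.7%, with the higher end beyond 100000 bp. Median wild-type density was also higher near starts, at 35.5 within 500 bp and 32.8 from 500 to 1000 bp, against 23.2 from 1000 to 2000 bp. These shares were not matched for density. The median distance was 7111 bp in the wild-type list and 981 bp in the K27M list. Chromosome 18 was left out, because the start site reference used here held none for it.

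H3K4me3, the trimethyl mark of promoters, remained called at the island promoters where H3K27ac was called in wild type alone. Of the 2264 such wild-type H3K27ac intervals, 97.5% (96.8 to 98.1) overlapped a wild-type H3K4me3 interval and 97.9% (97.2 to 98.4) a K27M H3K4me3 interval. Of the 4998 at promoters without an island the shares were 56.1% and 55.2%. Of the 11645 distal ones inside genes they were 11.4% and 7.89%. Wild-type H3K27ac intervals met by a K27M interval had higher shares. These were 99.7% and 99.7% at island promoters, 79.0% and 77.3% at other promoters, and 37.4% and 26.5% at distal intervals inside genes. The H3K4me3 lists themselves differed little in number and width, with 23368 and 22820 intervals, 85.9% of the wild-type intervals met and a median length ratio of 1.02 in shared regions. At the 10025 promoter regions found in both libraries for both marks the median log2 ratio was 0.06 for H3K27ac and 0.37 for H3K4me3. In 8292 of these (82.7%) the H3K27ac ratio was the lower of the pair, and the median difference was -0.31. The scale between libraries is unknown for each mark, so this difference depends on the deposited scales of all 4 libraries.

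Where both libraries had H3K27ac, the K27M stretch was usually narrower. In the 14738 shared regions the median called length was 1063 bp in wild type and 628 bp in K27M, with a median ratio of 0.680 (quartiles 0.470 and 0.871). The K27M length was the smaller in 86.8% of them and the larger in 13.1%. Distal regions were narrowed more, with median ratios of 0.476 inside genes and 0.505 away from genes, against 0.744 at island promoters and 0.620 at other promoters. In 20.3% of shared regions 1 wild-type interval met several K27M intervals, while the reverse was seen in 3.32%. Of the 11045 regions with 1 interval in each list, the K27M interval lay wholly inside the wild-type one in 7232 (65.5%), and the densest points of the pair lay a median of 64 bp apart, within 200 bp in 82.97%. The K27M interval was thus most often a shorter called stretch around a nearby maximum. Called length depends on the call thresholds, which are unknown.

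The ratio of mean densities fell as wild-type density rose, and the ratio of highest densities fell with narrowing. Mean densities gave a median log2((K27M + 1) / (wild type + 1)) of 0.03 (quartiles -0.19 and 0.25) over shared regions, with 34 regions (0.231%) at least 2-fold higher in K27M and 10 (0.0679%) at least 2-fold lower. By highest density this split turned to 74 higher and 708 lower, and with equal 5th percentiles of both lists to 0 higher and 1165 lower. The median went from 0.47 in the decile of regions with the lowest wild-type density to -0.23 in the decile with the highest. A sparse wild-type region could enter this comparison only with a K27M density above the K27M list's floor, so ratios of sparse regions had to lie high. At the dense end, sorting by wild-type density, the denominator of the ratio, favours regions whose wild-type value is high by measurement error. Such an error by itself lowers the ratio, and how much of the fall it makes up was not tested. By highest density the median was -0.28 over all shared regions and -0.75 in the 996 regions where the K27M length was at most 0.25 of the wild-type length. At length ratios of 0.25 to 0.5, 0.5 to 0.75 and 0.75 to 1 it was -0.46, -0.32 and -0.19. By mean density these bands stood at 0.001, 0.019 and 0.003, so that ratio changed little across them. By mean density it was -0.13 at length ratios up to 0.25, 0.20 at 1 to 1.5 and 0.42 above 1.5. Density multiplied by length was lower in the K27M library in 11833 shared regions (80.3%), with a median log2 ratio of -0.57. This sum stood at -0.46 at promoters and -1.07 away from them.

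Most genes with H3K27ac kept some of it while the covered length shrank. Of 26219 RefSeq genes, 12863 had a wild-type interval within their span and 1 kb on either side and 10847 had a K27M interval. Both lists marked 10683 genes, the wild-type list alone 2180 (16.9% of genes with a wild-type interval) and the K27M list alone 164 (1.51% of genes with a K27M interval). The 2180 came to 1173 with a common floor of 25.5 on density and to 1098 with equal numbers of intervals. Of the genes in both, 9864 (92.3%) had less covered length in K27M, and their median covered length was 1728 against 938 bp. Among genes with 1 wild-type interval 24.5% were in the wild-type list alone and 60.4% of their covered length remained. Among the 496 genes with 10 or more, 1.21% were in the wild-type list alone and 29.8% of the length remained. Genes with many intervals were thus rarely without any K27M interval, but lost the larger part of their covered length.

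The largest losses of covered length fell in long genes with many intragenic intervals. Nfia encodes a nuclear factor I protein of gliogenesis, and its covered length was 66247 bp in 68 wild-type intervals and 23503 bp in 33 K27M intervals. Maml2, which encodes a coactivator of Notch signalling, had 62105 bp in 61 intervals against 12561 bp in 21. Msi2, which encodes an RNA-binding protein of stem cells, had 58331 bp in 54 intervals against 19328 bp in 27. At Nfia and Msi2 most intervals lay deep inside the gene and not at its start. The cytoskeletal gene Septin9 had 54141 against 10341 bp, and Arhgap26, which encodes a GTPase activating protein, 47013 against 7249 bp. Vac14, of phosphoinositide metabolism, had 43965 against 10737 bp, and Tead1, which encodes a DNA-binding partner of YAP, 36930 against 8024 bp. Gains were far smaller. The largest was at Tmod1, an actin-capping tropomodulin gene, with 3817 bp in wild type and 6725 bp in K27M. It was followed by Fam118a with 0 and 2484 bp, Cnih3, an auxiliary subunit gene of AMPA receptors, with 245 and 1645 bp, and the keratin gene Krt78 with 1526 and 2907 bp.

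**Figure D3:**
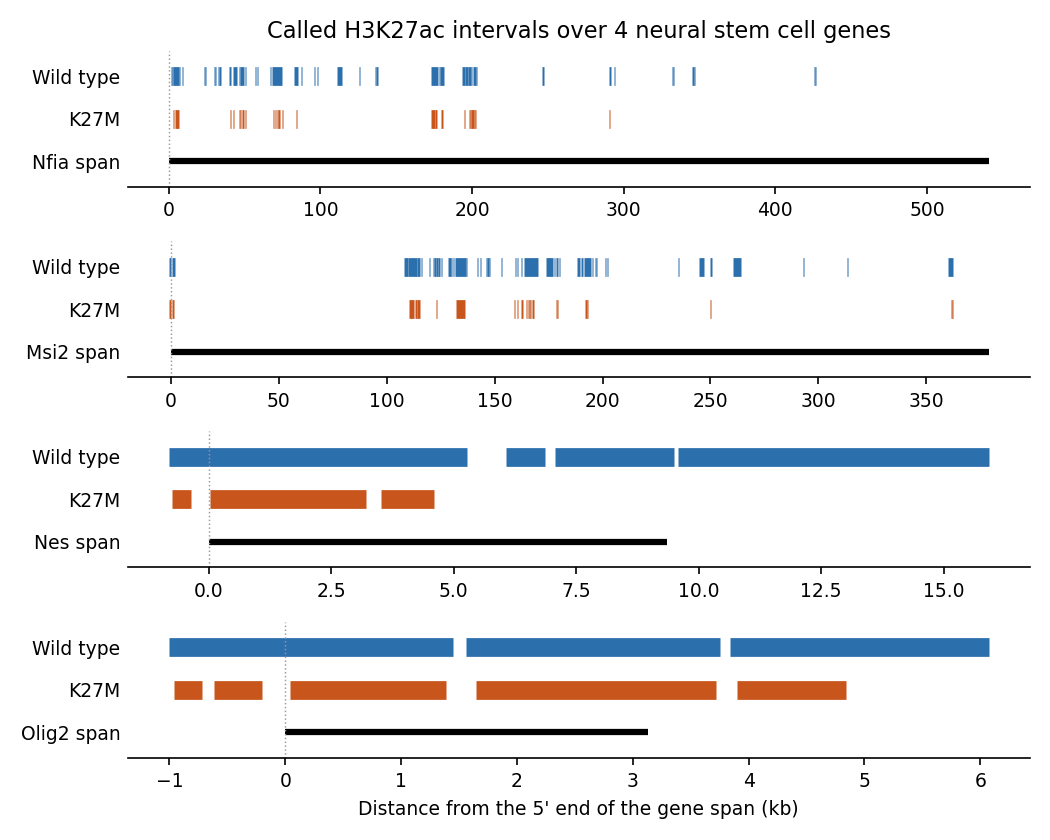
Called H3K27ac intervals over Nfia, Msi2, Nes and Olig2 in the wild-type (blue) and K27M (orange) lists, by distance from the 5′ end of the gene span in kb (horizontal axis), with the span in black; a bar is an interval and its thickness carries no value. Nfia goes from 68 to 33 intervals and Msi2 from 54 to 27, while Olig2 goes from 3 to 5 shorter ones.

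Genes of neural stem cells and progenitors kept H3K27ac, with lower ratios than other genes of the same wild-type density. Of 38 genes on this list 34 had intervals in both lists, 3 (Sox3, Hes5 and Ncan) in wild type alone and 1 (Prom1) in neither. The wild-type-alone share was 8.11% of 37 genes, against 16.9% of all genes. Of the 34 shared, 28 lay below the median ratio of all genes and 27 below the median of all genes in their own decile of wild-type density, where 50% of all genes lie below either. The median log2 ratio was -0.32 over the list and 0.02 over all genes, and relative to their own decile the list's median was -0.22. Placing the 2 lists on equal 5th percentiles moved the median over all shared regions from 0.03 to -0.54, so the sign of a gene's ratio rests on the scale and its place relative to other genes does not. Of the 34, 2 were at least 1.5-fold lower and 0 at least 1.5-fold higher, against 1.86% and 3.88% of all genes with a shared region. Over the list the covered length was 359 kb in wild type and 140 kb in K27M, or 39.0%, against 44.4% over all genes. This comparison takes no account of the number of intervals in a gene, with which the remaining length fell. An earlier analysis of these data had singled out this list.

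Among the transcription factors of the list, Zbtb20, which encodes a zinc-finger repressor active in the hippocampus and in glia, had the lowest ratio. In its densest shared region the density went from 56.1 to 29.9, a log2 ratio of -0.88, over called lengths of 2736 and 843 bp. The POU factor gene Pou3f2 went from 72.0 to 49.95 (-0.52). Sox2, the core stem cell factor of this lineage, went from 87.9 to 68.4 (-0.36) over nearly equal lengths of 1880 and 1747 bp. Olig2 went from 74.7 to 51.9 (-0.52) and its neighbour Olig1 from 64.0 to 68.5 (0.10). The 2 neighbouring Olig genes therefore lay on opposite sides of the median of all genes. Pax6, a regulator of neurogenesis, had a ratio of -0.20. Emx2 and Lhx2, regulators of cortical patterning, had the highest ratios of the list, 0.51 and 0.49, from wild-type densities of 24.1 and 26.6, the lowest of the 34.

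Structural and signalling genes of the list showed both directions relative to all genes. Nes, with its 10088 bp in 4 wild-type intervals and 4633 bp in 3 K27M intervals, went from 73.5 to 50.9 (-0.52), and its highest density from 160 to 83. Fabp7 went from 90.0 to 64.8 (-0.47) with highest densities of 173 and 91. The glutamate transporter gene Slc1a3 went from 73.0 to 50.2 (-0.53) and from 21465 to 9065 bp, and Bcan, a proteoglycan gene of the neural matrix, from 85.8 to 57.4 (-0.57). Above the median of all genes stood Ptprz1, a receptor phosphatase gene, at 0.38, the matrix gene Tnc at 0.35 and Egfr, the receptor of the EGF in the medium, at 0.24. Their covered lengths were smaller in K27M all the same. Ptprz1 went from 7459 to 1301 bp, Egfr from 10554 to 1983 bp and Tnc from 9172 to 5025 bp. Msi2, at -0.63, and Cdh2, an N-cadherin gene, at -0.43 and with 21128 against 3765 bp, were low in both respects.

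**Figure D4:**
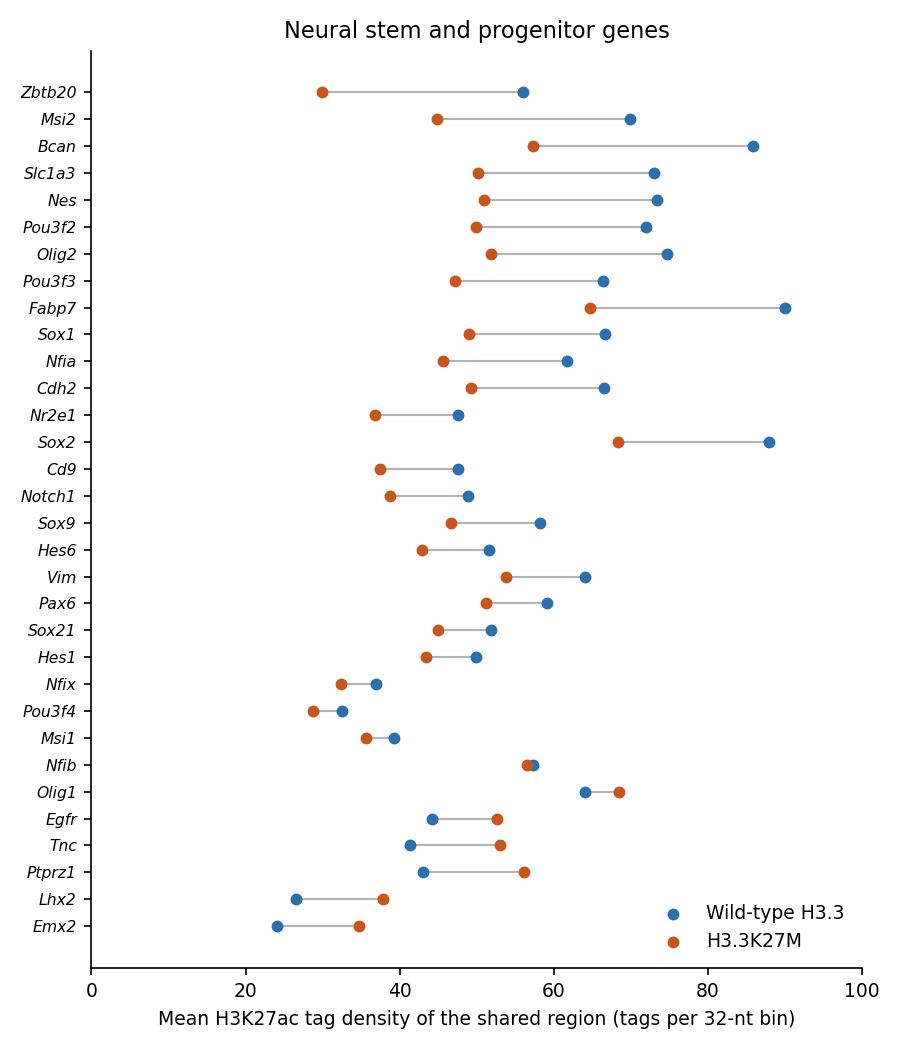
Mean H3K27ac tag density (horizontal axis, tags per bin of about 32 nt) of the densest shared region at neural stem and progenitor genes with H3K27ac in both lists, in wild type (blue) and K27M (orange), ordered by log2 ratio from the lowest at the top. The K27M point lies left of the wild-type point in most genes, from Zbtb20 (56.1 and 29.9) down, and right of it at Olig1 and the 5 genes below it, with Emx2 (24.1 and 34.8) last.

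Genes of the astrocyte list also lay low for their density, though 3 of its members, Slc1a3, Sox9 and Nfia, stand on both lists. Of its 15 genes 9 were in both lists, 3 (Gfap, Aldh1l1 and S100b) in wild type alone and 3 in neither, and all 9 lay below the median of their own decile of density, by a median of -0.20. Slc1a3 and Sparcl1, a secreted matrix protein gene, were lowest at -0.53 and -0.51, and Slc1a2 and Gja1, which encodes connexin 43, highest at 0.27 and 0.18. In the oligodendrocyte list 5 of 15 genes were in both. Cspg4, the NG2 proteoglycan gene of progenitors, went from 13374 to 6906 bp, and Pdgfra, the PDGF receptor of the same cells, had no interval in either list. Of 20 mature neuron genes 14 were in neither list and 3 (Rbfox3, Gad1 and Gap43) in wild type alone. Map2, a dendritic microtubule gene, held most of that list's length with 18942 bp in wild type and 2733 bp in K27M. Of 36 patterning genes 27 were in neither, and 33 of 37 Hox genes were in neither.

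Feedback and target genes of FGF and EGF signalling were all marked. All 22 on the list had H3K27ac in both lists, as did 10683 of 26219 genes in all, and 64.0% of their covered length remained against 44.4% over all genes. Their median ratio was -0.22, but 12 of 22 lay below the median of their own decile of density, close to the 50% of all genes. Among the feedback inhibitors Spred1 went from 56.9 to 36.6 (-0.63), while Spred2 went from 65.4 to 90.1 (0.46). Among the transcription factors Etv5 had a ratio of -0.57, Egr1 of -0.55, Ier3, an immediate early gene, of 0.25 and Etv4 of 0.11. Myc stayed near 1 to 1, with 71.6 and 69.3. Egr1, an immediate early zinc-finger gene, went from 4102 to 1435 bp.

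Receptor genes kept less of their length than all genes, in a comparison that did not take their number of intervals into account. Of 16 receptor tyrosine kinase genes 11 were in both lists and 5 in neither, and 27.3% of their covered length remained, against 44.4% over all genes. The 11 genes held 80 wild-type intervals together. Among all genes 35.6% of the length remained in those with 5 to 9 wild-type intervals and 29.8% in those with 10 or more. Fgfr1 was lowest, from 54.2 to 35.3 (-0.60) and from 8527 to 2208 bp. Igf1r followed at -0.32 with 16788 against 4370 bp. Epha4 and Erbb4, an ephrin receptor and a neuregulin receptor gene, were highest at 0.50 and 0.45. Relative to their own decile of density 6 of 11 lay below, with a median of -0.03. In the Notch list 14 of 18 genes were in both, 9 of 14 lay below their own decile, and 34.2% of the length remained. Notch1, a receptor, went from 18733 to 4421 bp (-0.33), and Jag1, a ligand, from 5174 to 1186 bp (0.56). Id2, an inhibitor of basic helix-loop-helix factors, was in wild type alone with 1208 bp, while Id1 and Id3 were in both.

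Among cell cycle inhibitors and p53 targets, 15 of 19 genes were in both lists and Cdkn2b was in wild type alone, over 2089 bp. The median ratio was -0.20, and 9 of 15 lay below their own decile. Bax, a proapoptotic target of p53, was lowest at -0.56, followed by Sesn1, a stress response gene, at -0.49. Mdm4 and Ppm1d, negative regulators of p53, were highest at 0.10 and 0.09. Cdkn2a, which encodes p16Ink4a and the Arf protein, had H3K27ac in both libraries although the cells were labelled as lacking both products, with 9057 bp in 13 intervals in wild type and 2394 bp in 5 in K27M. Its densest shared region went from 57.5 to 48.2 (-0.25). The labels do not say how the products were lost, and the count covers the whole gene span with its 1 kb flanks.

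The genes of the acetylation machinery itself were mostly marked in both libraries. Of 26 acetyltransferase, reader and deacetylase genes 23 were in both lists and 2 of 25 with a wild-type interval (8%) in wild type alone, against 16.9% of all genes. Of their covered length 29.3% remained. The 25 genes held 171 wild-type intervals together. Over all genes 35.6% remained in those with 5 to 9 intervals and 29.8% in those with 10 or more. Ep300 went from 78.4 to 89.6 (0.19) and from 2702 to 1787 bp. Crebbp went from 34.6 to 36.7 (0.08) and from 4665 to 778 bp. At both acetyltransferase genes the densest shared region was thus no sparser in K27M, with each density taken over its own called intervals. The covered length, which counts the whole gene span with its flanks, was smaller. Ncor1, a corepressor gene, was lowest at -0.66 and Brd3, a bromodomain reader gene, next at -0.63. Brd9, a bromodomain subunit gene of a BAF remodeller, was highest at 0.70 with 1454 against 289 bp, and Med1, a Mediator subunit gene, followed at 0.28. Hdac7 went from 21075 to 4740 bp, and Med24 and Hdac9 were in wild type alone with 3238 and 2464 bp. Of 27 H3K27 and H3K4 modifiers, 26 were in both lists and 13 of 26 lay below their own decile, at the share of all genes. Rbbp7, a histone-binding subunit gene of Polycomb repressive complex 2, was lowest at -0.57, and Ezh2, its methyltransferase, stood at -0.20. Aebp2 and Jarid2, cofactors of the same complex, were highest at 0.55 and 0.44. The H3.3 genes H3f3a and H3f3b had ratios of -0.27 and -0.53.

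Most metabolic lists stood close to all genes. The median ratio was -0.02 for 17 shared glycolysis genes, 0.10 for 21 shared genes of the TCA cycle, 0.04 for 14 of glutamine and glutamate metabolism, -0.02 for 15 of serine and one-carbon metabolism and -0.08 for 18 of cholesterol synthesis, against 0.02 for all genes. Of the cholesterol genes 16 of 18 lay below the median of all genes and 11 of 18 below that of their own decile of density. Of all genes 50% lie below either. By highest density the TCA cycle list turned from 0.08 above to -0.09 below all genes and the glutamine and glutamate list from 0.02 to -0.01. Hk2, a hexokinase gene, went from 38.1 to 43.4 (0.18), Glud1, of glutamate dehydrogenase, from 37.4 to 38.5 (0.04) and Idh1, of isocitrate dehydrogenase, from 51.5 to 55.2 (0.10). Pkm, of pyruvate kinase, was the lowest glycolytic gene at -0.61 and Slc16a1, a lactate transporter gene, the highest at 0.40. In the TCA cycle Mdh2 was lowest at -0.59 and Suclg2 highest at 0.50. Slc2a1, Pdk1 and Gls2 were among the genes that had wild-type intervals alone. The glucose transporter gene Slc2a1 had only 728 bp of them. Gpt2, of alanine aminotransferase, kept 1030 of 11837 bp. Housekeeping genes had a median ratio of 0.07, with Gapdh at -0.13 and Actb at -0.41, and 51.1% of their covered length remained.

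**Figure D5:**
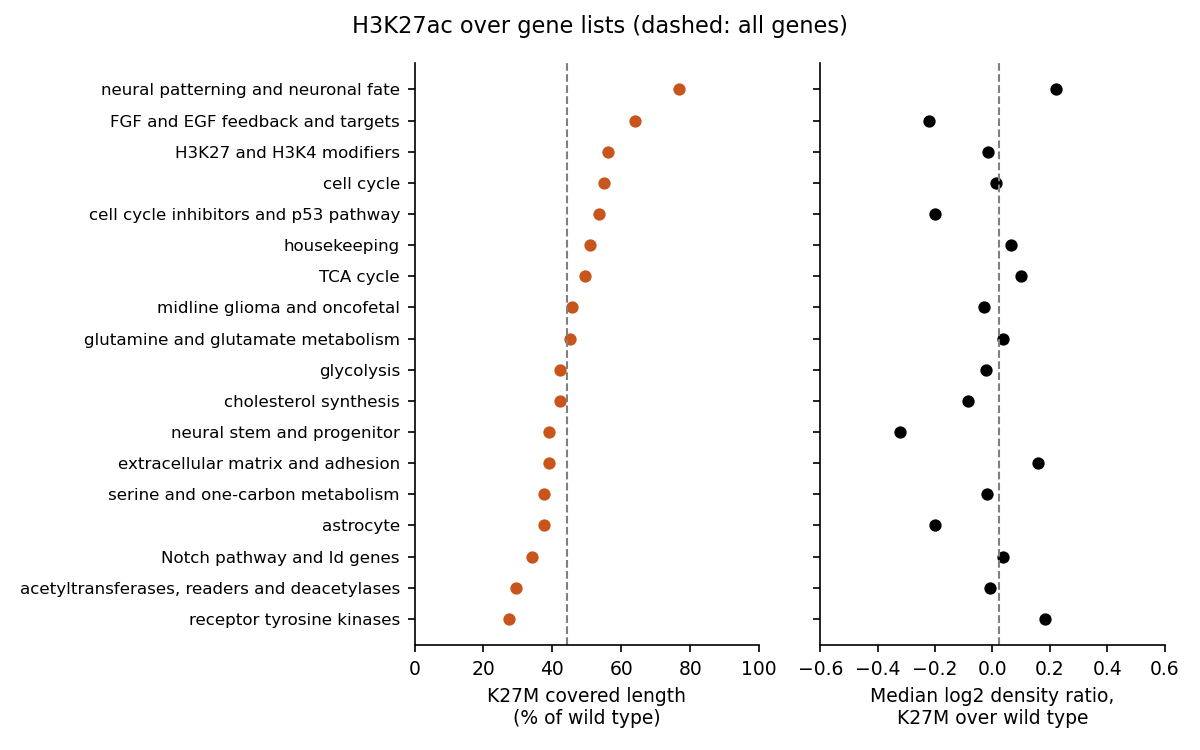
K27M covered length of H3K27ac as a percentage of the wild-type length (left) and median log2 ratio of mean density in shared regions (right) for gene lists with at least 6 shared members; dashed lines mark all genes (44.4% and 0.02). Receptor tyrosine kinases have the lowest remaining length (27.3%), and neural stem and progenitor genes the lowest median ratio (-0.32). The number of intervals in a gene, with which remaining length falls, is not taken into account.

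The extreme ratios over regions of like length (called lengths within 2-fold) were found at single genes of varied function. The lowest was Polr3b, an RNA polymerase III subunit gene, from 82.8 to 40.2 (-1.02). Celf4, an RNA-binding protein gene, went from 71.4 to 35.3 (-0.996), Lama5, a laminin gene, from 62.0 to 30.6 (-0.995), and the synaptotagmin gene Syt11 from 73.2 to 37.2 (-0.96). Next came Dnajc16 (-0.95), Tmem247 (-0.91), Ermp1 (-0.88) and Wwox (-0.85). Among the highest were Xkr6, from 16.6 to 44.6 (1.37), Lpgat1 (1.24), Pip4k2c (1.12), Mta3 (1.12), Xrcc5, a DNA end-joining gene (1.10), Slc25a13 (1.06) and Ttc26 (1.03). All 8 of the highest had wild-type densities between 16.6 and 26.9, and all 8 of the lowest had 56.1 or more, which follows the relation between ratio and wild-type density given above.

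The 8 densest wild-type regions with no K27M interval were mostly short. They lay at Ppp1r14c (82.8 over 1888 bp), Tmem267 (81.9 over 398 bp), Mpzl1 (74.4), Mlst8, an mTOR complex gene (70.2), Arhgap5 (64.8), Dpysl2, a gene of axon growth (64.3), Atf7 (63.5 over 1825 bp) and Mib1, a ubiquitin ligase gene of Notch ligands (60.1). Ppp1r14c, a phosphatase inhibitor gene, and Atf7, a CREB-family factor gene, held the only ones of these over 1000 bp, and both were distal regions inside the gene.

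H3K27ac found in the K27M library alone was sparser, was spread unevenly over chromosomes and lay more often on wild-type H3K27me3. Its 1022 regions had a median density of 27.9 and a median length of 276 bp, against 38.1 and 508 bp for K27M intervals met by wild type. The densest lay at Gpd1 and Cox14 (63.7), Dip2b (57.8), Eef1d and Tigd5 (52.2), the tubulin gene Tuba1b (50.7), Btbd9 (49.2), Mpdz (48.3), Fam118a (48.2) and Rhob (46.1). Chromosome 15 held 5 of these 8, 18 of the 50 densest and 101 of all 1022 (9.88%), against 5.603% of all regions with a K27M interval. Median densities on chromosome 15 were also high in both lists, 29.7 in wild type and 42.7 in K27M, while the other autosomes lay between 25 and 26.97 and between 36.0 and 38.2. Whether copy number differs there was not tested. Of the K27M-alone intervals 103 (10.1%, 8.30 to 12.1) lay on wild-type H3K27me3, the Polycomb mark. Of the K27M intervals met by wild type 2.05% (1.85 to 2.26) did. On K27M H3K27me3 lay 12 (1.17%) of the K27M-alone intervals, against 0.410% of those met. The K27M-alone group was chosen for lacking wild-type H3K27ac, which shares its lysine with H3K27me3. A higher share on wild-type H3K27me3 is thus partly built into the choice, and a gain there was not tested. At island promoters the share on wild-type H3K27me3 was 24.6% (19.5 to 30.3) of 260 against 2.88% of 9917. Among these were Prickle1, a planar polarity gene, with a density of 37.6, the growth factor gene Fgf9 with 34.2 and Slitrk5, a neuronal adhesion gene, with 32.7, which were chosen after their values were seen. Of all wild-type H3K27me3 intervals, 442 (2.13%) held an interval of the K27M list of 20040 and 838 (4.05%) one of the wild-type list of 39018.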

How the data were processed

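ChIP-seq interval lists of mouse neuronal stem cells were used, with 1 list per library. BWA, SICER and mm10 are listed per the submitters' processing notes. What each tool did, its version and settings, and whether inputs entered were not given in the sources used here. Values that the authors deposited are a signal (coverage), namely the mean and the highest tag density of an interval in bins of about 32 nt, per the file headers. No total counts are given, so the depth is unknown, and a difference of scale between the 2 libraries cannot be told apart from a genome-wide change. The promoter, CpG island and gene notes are the authors' deposited ones.

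Intervals were compared by overlap of at least 1 bp and merged into regions. Shared regions, with an interval in both lists, were compared by log2((K27M + 1) / (wild type + 1)) of the mean densities, each over its own intervals, which understates changes at low density. A gene took the intervals within its RefSeq span (GRCm38.p6, the assembly of mm10, 26219 genes) and 1 kb on either side, and its densest shared region for the ratio. All 491 list symbols were matched. Promoter windows came from RefSeq. With 1 library per genotype no test was made, and shares have exact (Clopper-Pearson) 95% intervals. The overlap code was checked on simulated intervals.

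Named genes were, with called lengths within 2-fold, the 8 highest and 8 lowest ratios over regions where the denser library reached the median of shared regions, the genes at the 8 densest regions of either list alone, the 8 largest losses and 4 largest gains of covered length, the lowest 2 and highest 2 of each list and a fixed set. Of lists near all genes or with few shared members not all are named, and some other members were named after their values were seen. Some genes chosen by these rules are not reported here. The members, lists and rules were chosen with earlier results of these data known. Alternatives were a common density floor, overlap of at least 50%, the highest density, pseudocounts of 5 and 0.1, equal 5th percentiles, centring, like lengths, a flank of 5 kb and equal numbers of intervals. Python 3.11.15, numpy 2.4.6, pandas 2.3.3 and scipy 1.17.1 were used.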

Additional observations from a re-analysis of the deposited data

How the results depend on the processing

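No paired analysis was possible because each genotype had 1 library. With a common floor of 25.5 on mean density, 64.8% of wild-type intervals were met by K27M intervals and 87.5% the other way, the covered length ratio was 1.97, 80.3% of promoter regions and 41.0% of other regions were shared, 3 shared regions were at least 2-fold higher, 1173 genes were in wild type alone, and the median log2 ratio turned to -0.020. With equal numbers of intervals, the densest 20040 of wild type, a choice made after seeing the data, these values were 66.1%, 85.1%, 1.91, 81.0%, 43.1% and 1098 genes. Overlap of at least 50% of the interval gave 27.6% and 92.4%. The median log2 ratio turned to -0.28 by highest density, with 74 regions higher and 708 lower, and to -0.54 with equal 5th percentiles, with 0 higher and 1165 lower. With pseudocount 5 there were 9 higher and 3 lower, with pseudocount 0.1 16 lower, with called lengths within 2-fold 2 lower and a median of 0.043, and after centring 17 lower. The step between promoters and other regions kept its direction under the floor and with equal numbers. The median length ratio of shared regions was 0.671 under the floor, against 0.680 without it. The floor removed whole intervals and did not trim their edges. It therefore cannot show how far a higher calling threshold would shorten an interval. Of 54 recomputed list medians relative to all genes, 51 stayed within the interval of the main median and 3 moved out of it (cholesterol synthesis and housekeeping under the floor, TCA cycle by highest density). Of the 18 lists recomputed, those with at least 6 shared members, 4 lay at least 0.2 from all genes. Of their medians 0 changed sign, while 8 medians of the nearer lists did. The neural stem and progenitor list stayed beyond 0.2, at -0.32, -0.28 and -0.33 under the floor, by highest density and with like lengths. The others came nearer than 0.2 under some alternatives. By highest density the FGF and EGF list stood at -0.11 and the p53 list at -0.08. With like lengths the astrocyte list stood at -0.08. The unknown depth and the separate calling limit every statement on absent intervals.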
